A study of Mus musculus with 9 samples.

Results

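The myosin light chains are the small subunits that wrap the neck of the myosin motor. The 8 genes described here, Myl1, Myl2, Myl3, Myl4, Myl6, Myl6b, Myl9 and Mylpf, were taken by symbol from the 47729 genes of a raw count table, and all 8 were found in it. They were selected on their counts in all 9 libraries, so their levels and differences are given as a description. Where the fit across all genes calls some of them, the count is set beside the share called among all genes and is part of that description, with no p-value printed. Of the 8, 7 reached 1 CPM (a read count scaled to library size) in at least 3 libraries and entered the fit across 13324 genes. Myl3 did not.

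RNA was sequenced from C2C12, an established mouse myoblast line whose cells stop dividing and fuse into multinucleate myotubes once serum is lowered. All cells were grown in 10% fetal bovine serum (FBS) and differentiated in 5% horse serum. The 3 populations were a control carrying a guide RNA without a genomic target (WT), a CRISPR-Cas9 knockout of the clock gene Per1 (Per1KO) and one of the clock gene Per2 (Per2KO). Each was sampled on day 0, before differentiation, and on days 3 and 5 of it, with 1 library for each population and day. No group therefore has a replicate, and whether a population was a single clone is not given in the sources used here. As their tissue the labels give whole muscle, although the protocol describes cell culture. Of 8 markers of blood, vessel, immune, nerve sheath and fat cells, 7 stayed under 1 CPM in every library.

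WT libraries held 5020385 to 6773320 counts and knockout libraries 41997763 to 48051824, a ratio of means of 7.82. Depth, and a suffix that only the WT titles carry and the labels do not explain, separate WT from both knockouts, so wherever a knockout is set against WT, these and the genotype cannot be told apart. A count of 3, the limit that a count of 0 allows, equals 0.423 to 0.659 CPM in WT and 0.0590 to 0.0730 CPM in the knockouts. Per1 transcripts stood at 35.5, 33.7 and 30.96 CPM on days 0, 3 and 5 in WT and at 20.8, 32.4 and 28.9 in Per1KO. Per2 transcripts stood at 9.73, 11.5 and 20.4 CPM in WT and at 3.50, 9.11 and 8.37 in Per2KO. Each was still counted in its own knockout, and on day 0 Per1 was lower in Per2KO (16.4 CPM) than in Per1KO.

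Each myosin motor carries an essential and a regulatory light chain on each heavy chain. Essential chains stiffen the lever arm, and regulatory chains are phosphorylated by myosin light chain kinases, which in smooth muscle and non-muscle cells switches the motor on and in striated muscle tunes its force. Muscle replaces the chains of other cells with its own as it forms, and the forms kept afterwards differ between fast, slow and cardiac fibres. Myl1 (essential) and Mylpf (regulatory) are the fast skeletal chains, Myl3 (essential) and Myl2 (regulatory) the slow skeletal and ventricular ones. Myl4 is the essential chain of embryonic skeletal muscle and of the atrium. Myl6b is an essential chain of slow and non-muscle myosin, Myl6 the essential chain of non-muscle and smooth muscle myosin, and Myl9 a regulatory chain of smooth muscle and non-muscle myosin.

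All 8 are protein-coding genes in GENCODE M21 on build GRCm38. The fast chains lie at chr1:66924295-66945404 (Myl1, minus strand) and chr7:127208890-127214298 (Mylpf, plus strand), and the slow chains at chr5:122100951-122113472 (Myl2, plus) and chr9:110741861-110769798 (Myl3, plus). Myl4 lies at chr11:104550663-104595753 (plus) and Myl9 at chr2:156775420-156781658 (plus). Myl6 (chr10:128490860-128494145) and Myl6b (chr10:128494157-128498685) are neighbours on the minus strand. Myl2 overlaps Ccdc63 on the other strand, which had at most 2 counts in any library.

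Sequence before a RefSeq start is shown for 3 of the muscle chains that were higher on days 3 and 5 and, beside them, for Myl9, which was not called on either day. Myl4 and Myl2 are not shown. Only 42 bases of the Myl4 window lie outside exons, and the RefSeq starts of Myl2 lie 8227 and 7762 bases upstream of its GENCODE start. The RefSeq starts of Mylpf and Myl1 lie 2718 and 348 bases downstream of their GENCODE gene starts. Their stretches therefore lie inside the gene spans given above. The stretches come from RefSeq on build GRCm38.p6, lie within the 250 bases before the RefSeq start, run 5′ to 3′ on the gene's strand, and were limited to bases outside annotated exons. Capitals mark an E-box (CANNTG on either strand, the core bound by MyoD-family factors) in the first 3 and a CArG box, the motif of serum response factor, in Myl9.
Mylpf, chr7:127211358-127211607, plus strand: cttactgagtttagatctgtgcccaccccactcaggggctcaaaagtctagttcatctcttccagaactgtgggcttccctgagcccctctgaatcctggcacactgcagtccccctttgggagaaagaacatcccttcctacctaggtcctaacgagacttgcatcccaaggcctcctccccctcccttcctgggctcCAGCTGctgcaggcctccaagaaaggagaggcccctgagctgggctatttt
Myl1, chr1:66945144-66945290, minus strand: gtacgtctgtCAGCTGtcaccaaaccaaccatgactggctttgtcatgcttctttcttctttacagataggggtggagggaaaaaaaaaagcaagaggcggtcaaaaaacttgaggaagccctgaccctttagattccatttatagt
Myl6b, chr10:128498686-128498935, minus strand: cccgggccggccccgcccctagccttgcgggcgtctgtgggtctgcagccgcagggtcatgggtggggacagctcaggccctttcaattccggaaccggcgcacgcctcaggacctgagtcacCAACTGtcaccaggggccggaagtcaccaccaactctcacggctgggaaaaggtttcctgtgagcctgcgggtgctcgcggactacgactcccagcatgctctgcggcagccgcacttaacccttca
Myl9, chr2:156775214-156775419, plus strand: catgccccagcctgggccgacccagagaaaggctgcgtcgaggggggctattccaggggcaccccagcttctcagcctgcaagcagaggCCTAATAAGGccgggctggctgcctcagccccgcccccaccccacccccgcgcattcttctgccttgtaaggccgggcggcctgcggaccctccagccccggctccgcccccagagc

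The E-box of Mylpf begins 51 bases before its RefSeq start and that of Myl1 224 bases before, and both read CAGCTG. In Myl6b the E-box reads CAACTG and begins 127 bases before the start. The CArG box of Myl9 begins 161 bases before its start, and no E-box lies in that window. An E-box was found in 66.2% of 32851 RefSeq windows of 250 bases, CAGCTG in 13.0%, a CArG box in 1.47% and a MEF2 site, searched by name on both strands, in 2.92%. None of the 4 stretches holds a MEF2 site. Of 2 RefSeq windows of Myl6, which was not called and is not printed, 1 holds an E-box (CATCTG, 71 bases before the start) and the other a CArG box. The 42 bases of Myl4 hold no E-box. The window of Myl3 holds both an E-box (CAGGTG, 189 bases before the start) and a CArG box (85 bases before), and both windows of Myl2 hold an E-box. These are matches of letters, and the libraries do not measure binding.

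The fast and embryonic chains were low on day 0, lowest in the knockouts, and were far higher in all 3 populations on days 3 and 5. Mylpf stood at 142, 4882 and 4210 CPM on days 0, 3 and 5 in WT. It stood at 11.1, 2477 and 4608 CPM in Per1KO, and at 5.82, 2202 and 3589 CPM in Per2KO. WT was highest on days 0 and 3, and on day 5 it lay between the knockouts. The fold from day 0 to day 5 was 29.6 in WT, 414.5 in Per1KO and 617 in Per2KO.

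Myl1, the essential partner of Mylpf in fast fibres, stood at 41.0, 906 and 1295 CPM in WT. It stood at 13.8, 534 and 1245 CPM in Per1KO and at 9.14, 542 and 1016 CPM in Per2KO. Levels increased from each day to the next in all 3 populations, and WT was the highest on each day. Up to 38.7% of the 31-base words of its principal transcript also occur in the pseudogene Mylf-ps, which has no line in the table.

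Myl4, the embryonic essential chain, had the widest range among the 3. Its levels were 24.7, 1274 and 2032 CPM in WT, 1.13, 791 and 1842 CPM in Per1KO and 0.727, 710 and 1448 CPM in Per2KO. On day 0 it was counted 175 times in WT, 56 times in Per1KO and 37 times in Per2KO, although the knockout libraries were far deeper. Its fold from day 0 to day 5 was 82.4 in WT, 1625 in Per1KO and 1991 in Per2KO. On day 3 the knockout levels were 0.621 (Per1KO) and 0.557 (Per2KO) times that of WT, and on day 5 they were 0.906 and 0.713 times.

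Myl6b, an essential chain of slow and non-muscle myosin, was also higher on days 3 and 5 than on day 0 in all 3 populations. It stood at 19.7, 328 and 291 CPM in WT, at 11.1, 232 and 366 CPM in Per1KO and at 9.10, 201 and 286 CPM in Per2KO. WT was highest on days 0 and 3 and Per1KO on day 5.

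Myl2, the slow and ventricular regulatory chain, was the only light chain with more transcript in both knockouts than in WT on every day on which it was detected. No read was counted in any of the 3 day 0 libraries. In WT it reached 2.73 CPM on day 3, from 15 counts, and 19.1 CPM on day 5, from 87 counts. In Per1KO it reached 23.1 and 239 CPM, and in Per2KO 20.9 and 159 CPM. The level of each knockout on day 3 was above that of WT on day 5, but within counting error. The counting interval of WT on day 5 was 15.3 to 23.6 CPM. It overlapped those of Per1KO (21.8 to 24.5 CPM) and Per2KO (19.7 to 22.3 CPM) on day 3. The fold over WT on day 3 was 8.47 in Per1KO and 7.66 in Per2KO. On day 5 it was 12.5 in Per1KO and 8.34 in Per2KO. Against the limit of 3 counts per library on day 0, the day 5 level was at least 45.2-fold higher in WT, at least 3927-fold higher in Per1KO and at least 2702-fold higher in Per2KO.

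Myl3, the slow essential chain that pairs with Myl2 in slow fibres and ventricle, did not follow it. It had 0, 1 and 7 counts in WT, 0, 7 and 37 in Per1KO and 0, 9 and 27 in Per2KO on days 0, 3 and 5. On day 5 its level was 0.577 times the WT level in Per1KO and 0.427 times in Per2KO, with a counting error of 0.59 and 0.61 on the log2 scale, so no difference was detectable at this depth. Of 7 cardiomyocyte markers, Hand2 had no count in any library and Nppa stayed under 1 CPM. The summed level of the 7 was 41.7 to 54.7 CPM in WT, 40.4 to 58.8 in Per1KO and 38.3 to 51.8 in Per2KO, and most of it on day 0 was Gata4. Single markers differed within this sum. On day 5 Tnni3 stood at 3.07 CPM in WT, 16.1 in Per1KO and 13.2 in Per2KO. Myh6 went the other way, with 29.6, 10.3 and 6.37 CPM.

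**Figure D1:**
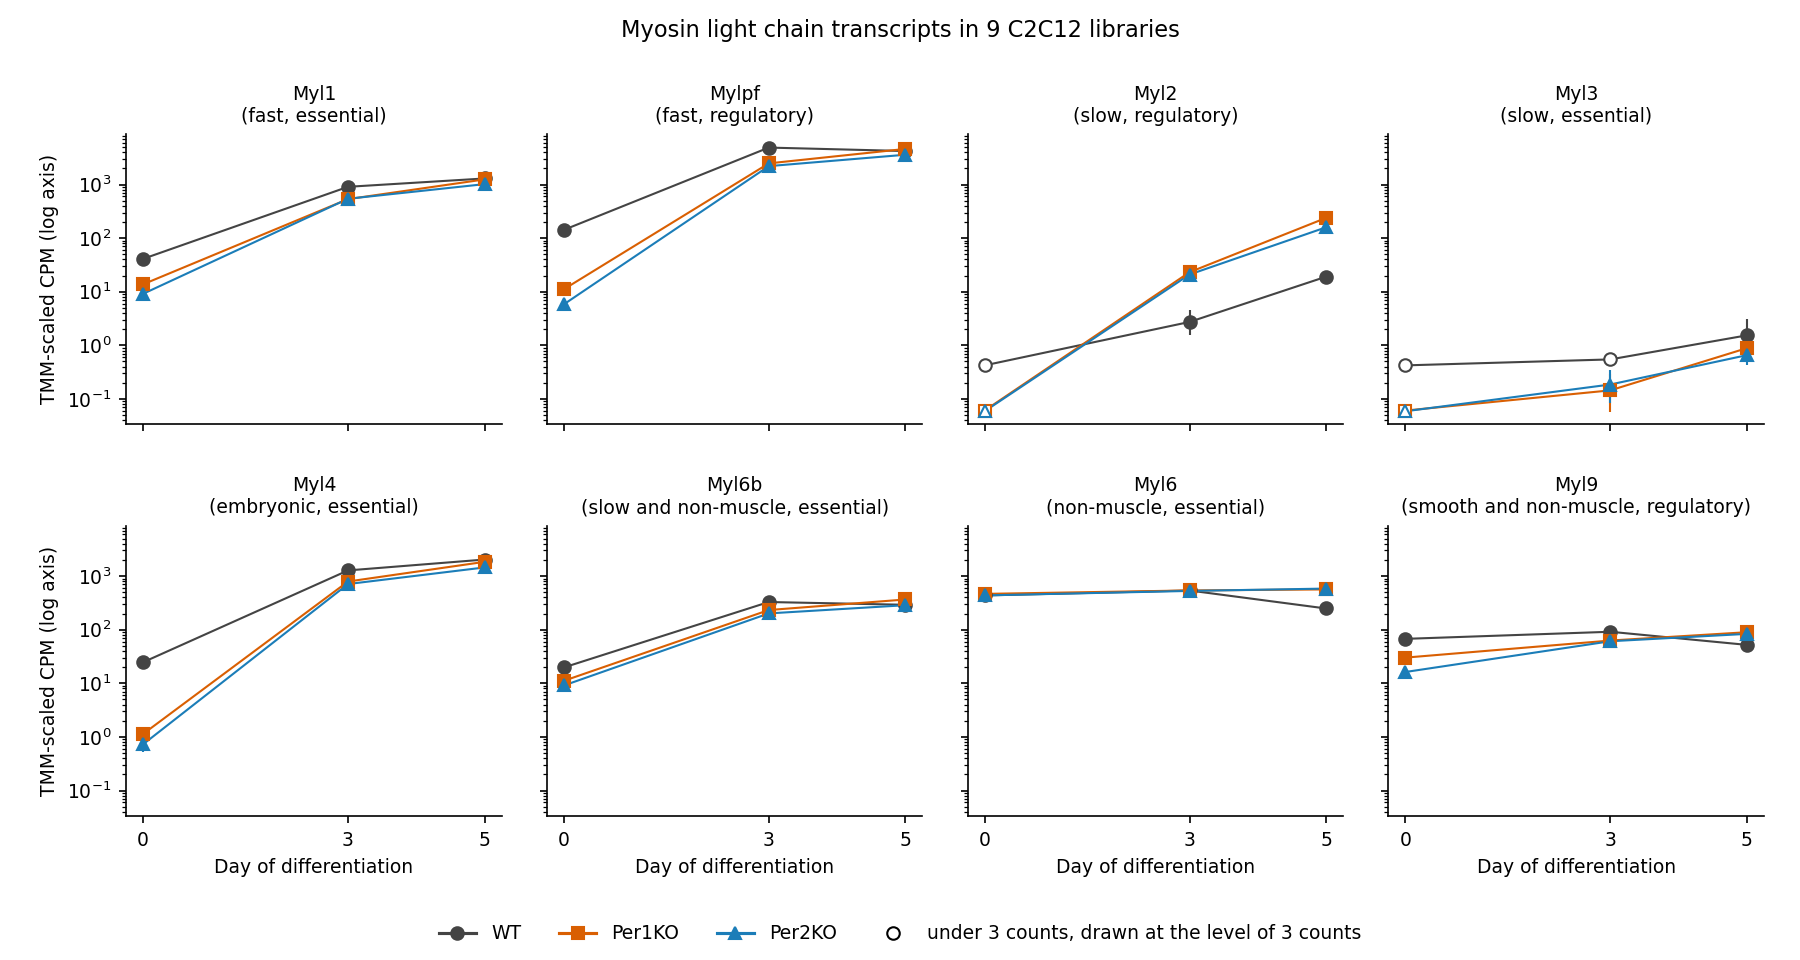
Level of each light chain (TMM-scaled CPM, log axis) against day of differentiation in WT, Per1KO and Per2KO, 1 library per point with its 95% counting interval. Open symbols mark under 3 counts and are drawn at the level of 3 counts; Mylpf, Myl1 and Myl4 climb in all populations, while Myl2 ends at 19.1 CPM in WT and at 239 and 159 CPM in the knockouts.

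Myl6, the essential chain of non-muscle and smooth muscle myosin, had the smallest ratio of highest to lowest level among the 8 over the 9 libraries. It stood at 435, 538 and 248 CPM in WT, at 465, 539 and 564 CPM in Per1KO and at 436, 528 and 584 CPM in Per2KO. The 3 populations lay close together on days 0 and 3, and on day 5 the WT library was the low one, with 0.462 times its own day 3 level. On day 5 the knockouts were 2.27-fold (Per1KO) and 2.35-fold (Per2KO) above WT.

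The counts of Myl6 cannot be taken as its own alone. Of the 31-base words of its principal transcript, 65.4% also occur in another gene, mostly in 5 processed pseudogenes. The pseudogene Gm5526 received 0 to 1 counts per WT library and 902 to 1472 per knockout library, and Gm11836 received 6 to 17 and 743 to 988. Summed over the 5, pseudogene counts were 6.52, 6.37 and 5.48% of the Myl6 count in WT on days 0, 3 and 5. In Per1KO they were 18.5, 15.7 and 13.7%, and in Per2KO 17.4, 16.2 and 14.2%. All 6 knockout libraries lay above all 3 WT libraries. The part of the authors' read assignment in this was not tested. With the 5 pseudogenes added to Myl6, the day 5 fold over WT was 2.45 in Per1KO and 2.55 in Per2KO, and the day 0 fold was 1.19 and 1.11.

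**Figure D2:**
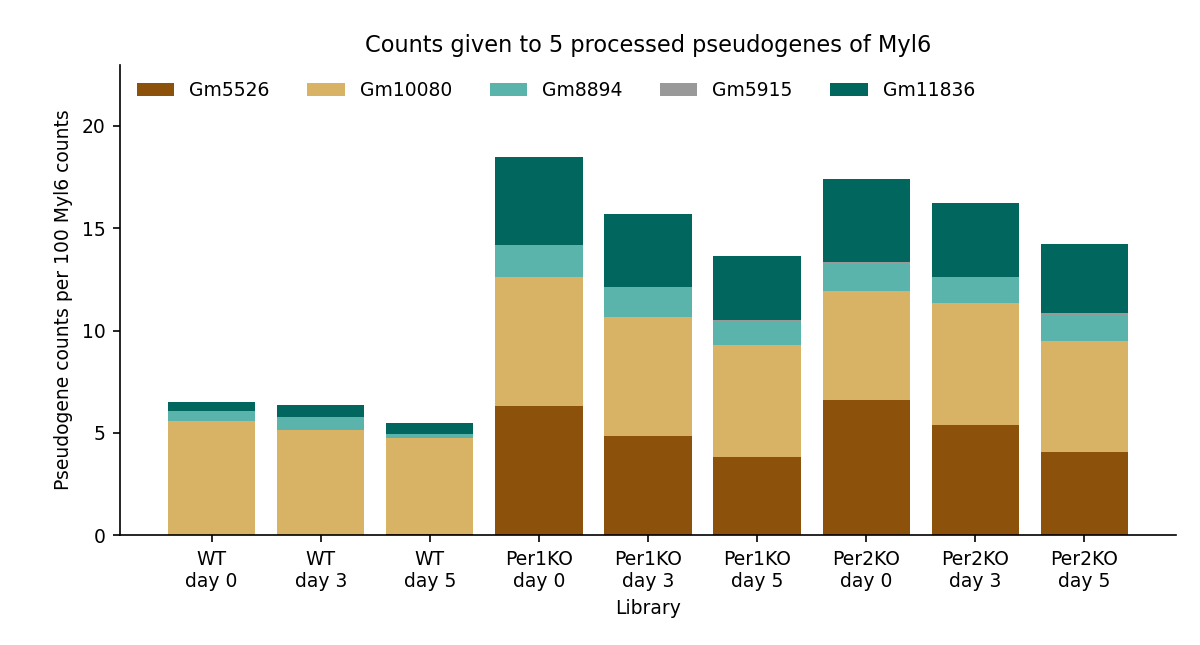
Counts given to each of 5 processed pseudogenes of Myl6 per 100 Myl6 counts (vertical axis, stacked bars) in each of the 9 libraries. The bars reach 5.48 to 6.52 in WT and 13.7 to 18.5 in the knockouts, and Gm5526 and Gm11836 are nearly missing from the WT bars.

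Myl9 stood at 67.4, 91.4 and 52.0 CPM in WT, at 30.1, 62.7 and 89.7 CPM in Per1KO and at 16.2, 60.8 and 83.5 CPM in Per2KO. WT was the highest on days 0 and 3 and the lowest on day 5. In the knockouts the level increased 2.98-fold (Per1KO) and 5.15-fold (Per2KO) from day 0 to day 5, while in WT the ratio was 0.772. Among 7 smooth muscle markers, Myh11 and Myocd stayed under 1 CPM in every library. The summed level of the 7, mostly Acta2, was 787, 3615 and 1928 CPM in WT, 850, 3672 and 4517 CPM in Per1KO and 717, 3405 and 4088 CPM in Per2KO. It too was lowest in WT on day 5, as were Acta2, Tagln and Lmod1. Smtn went the other way, with 162.5 CPM in WT on day 5, 93.1 in Per1KO and 87.3 in Per2KO. The part of these markers in the Myl9 levels was not tested.

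Levels of different genes can be compared only per length, and the order then depends on which length is used. Per kilobase of the union of a gene's exons, day 5 of WT gave Mylpf 3964, Myl1 625, Myl4 438, Myl6b 158, Myl6 77.9, Myl9 44.8, Myl2 9.80 and Myl3 0.752 CPM per kilobase. The union counts long transcripts that retain introns of Myl4 and Myl6. Per kilobase of the principal transcript, a length chosen after seeing the data, the same library gave Mylpf 5496, Myl4 2155, Myl1 1613, Myl6 373, Myl6b 284, Myl9 46.1, Myl2 21.5 and Myl3 1.64. Mylpf led, and Myl9, Myl2 and Myl3 came last in that order, under both lengths. In both knockouts on day 5 Myl2 stood above Myl9 under both lengths, at 268 against 79.5 CPM per kilobase of principal transcript in Per1KO and 179 against 74.1 in Per2KO.

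Ratios between chains within a library remove depth and scaling, and a change of such a ratio between libraries does not depend on length. For the regulatory position, Myl2 counts were taken per 100 Mylpf counts. In WT it was 0.0560 on day 3 (exact 95% counting interval 0.0313 to 0.0923) and 0.454 on day 5 (0.363 to 0.560). In Per1KO it was 0.934 and 5.18, and in Per2KO 0.951 and 4.44. The intervals of WT lay below both knockouts on each of these days. Even so, Mylpf counts outnumbered those of Myl2 in every library.

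In the essential position, Myl4 counts per 100 Myl1 counts were 60.1, 141 and 157 in WT. They were 8.25, 148 and 148 in Per1KO and 7.96, 131 and 143 in Per2KO. The gap between WT and the knockouts was widest on day 0. On day 3 the WT ratio lay between those of Per1KO and Per2KO. On day 5 the interval of WT (152 to 162) lay above those of both knockouts. Mylpf per 100 Myl1 also differed most on day 0, with 347, 539 and 325 in WT, 80.9, 464 and 370 in Per1KO and 63.7, 406 and 353 in Per2KO. Myl6b per 100 Myl1 was instead lower on each later day, from 48.1 through 36.2 to 22.5 in WT, from 80.9 through 43.6 to 29.4 in Per1KO and from 99.6 through 37.1 to 28.2 in Per2KO. Myl3 never exceeded 0.119 per 100 Myl1.

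**Figure D3:**
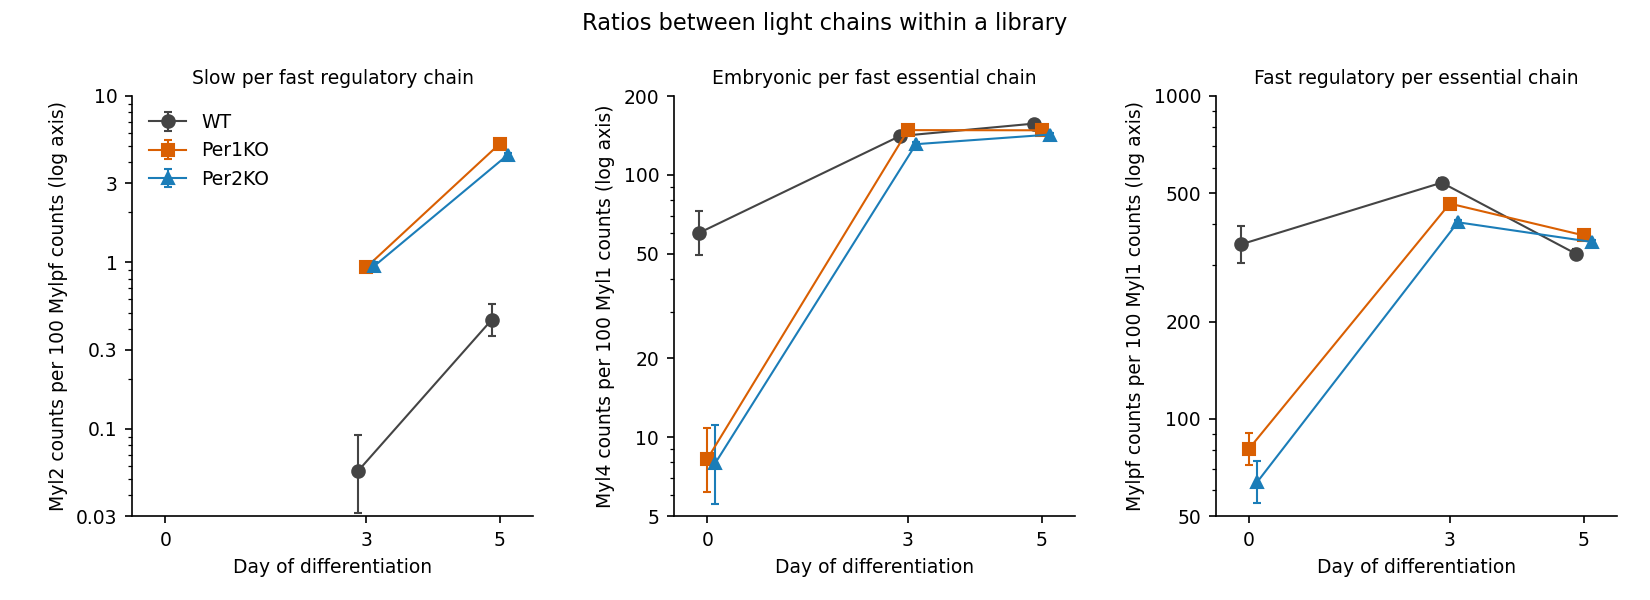
Counts of 1 light chain per 100 counts of another (log axes) against day of differentiation, with exact 95% counting intervals; day 0 is left out for Myl2, which had no count. The Myl2 to Mylpf ratio separates the knockouts (4.44 and 5.18 on day 5) from WT (0.454), while in the other 2 ratios the gap to WT is widest on day 0.

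In the fit across all genes, 5 of the 7 light chains tested were called higher on day 3 than on day 0 and the same number on day 5. A call means an adjusted p-value under 0.05 in edgeR's quasi-likelihood test, with populations standing in for replicates of a day. On day 3, 18.1% of all genes tested were called higher and 16.9% lower, and on day 5 the shares were 23.2% and 22.9%. The 5 called were Myl1, Myl2, Myl4, Myl6b and Mylpf on both days. Myl2 passed the filter only through days 3 and 5 and had no count on day 0, so its call had to follow. In these comparisons 0 light chains were called lower by edgeR, by DESeq2 or at an unadjusted p under 0.05. The log2 change from day 0 to day 5, over the 3 populations, was 8.95 ± 1.16 (standard error) for Myl4, 7.47 ± 1.02 for Mylpf, 6.08 ± 0.40 for Myl1 and 4.66 ± 0.25 for Myl6b. It was 1.24 ± 0.44 for Myl9 and 0.01 ± 0.25 for Myl6, which were not called. Without the WT libraries these 2 were called on both days, and without Per1KO the day 3 count was 3, with Myl4 and Mylpf no longer called.

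Against WT, Myl2 alone was called among the 7, and it was higher in both knockouts. Among all genes tested, Per1KO had 9.26% called higher and 10.1% lower, and Per2KO 9.31% and 10.6%. The log2 difference of Myl2 over the days was 3.43 ± 0.22 in Per1KO and 3.06 ± 0.22 in Per2KO. Since Myl2 had no count on day 0, it rests on the libraries of days 3 and 5. The call was lost without the day 5 libraries, where the difference was 3.07 ± 0.44 and 2.93 ± 0.44, and under DESeq2, which gave 2.60 ± 1.12 and 2.26 ± 1.13. The fast and embryonic chains had negative differences with wide errors, -1.80 ± 0.83 and -2.17 ± 0.85 for Mylpf and -1.84 ± 0.91 and -2.13 ± 0.92 for Myl4. Without day 0 those of Mylpf shrank to -0.46 ± 0.29 in Per1KO and -0.74 ± 0.29 in Per2KO, and those of Myl4 to -0.43 ± 0.17 and -0.69 ± 0.17, at which Myl4 was called in Per2KO.

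Day by day, the differences from WT were of 3 kinds. Mylpf, Myl4 and Myl1 were far below WT on day 0, with log2 differences of -3.67, -4.37 and -1.57 in Per1KO and -4.60, -4.97 and -2.16 in Per2KO. On day 5 the same 3 lay between -0.14 and 0.13 in Per1KO and between -0.49 and -0.23 in Per2KO. Myl2 was above WT on both days of detection. Myl6 was level with WT on days 0 and 3 and above it on day 5, and Myl9 went from -1.16 and -2.05 on day 0 to 0.78 and 0.68 on day 5. Each of these compares single libraries, with no replicate check.

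**Figure D4:**
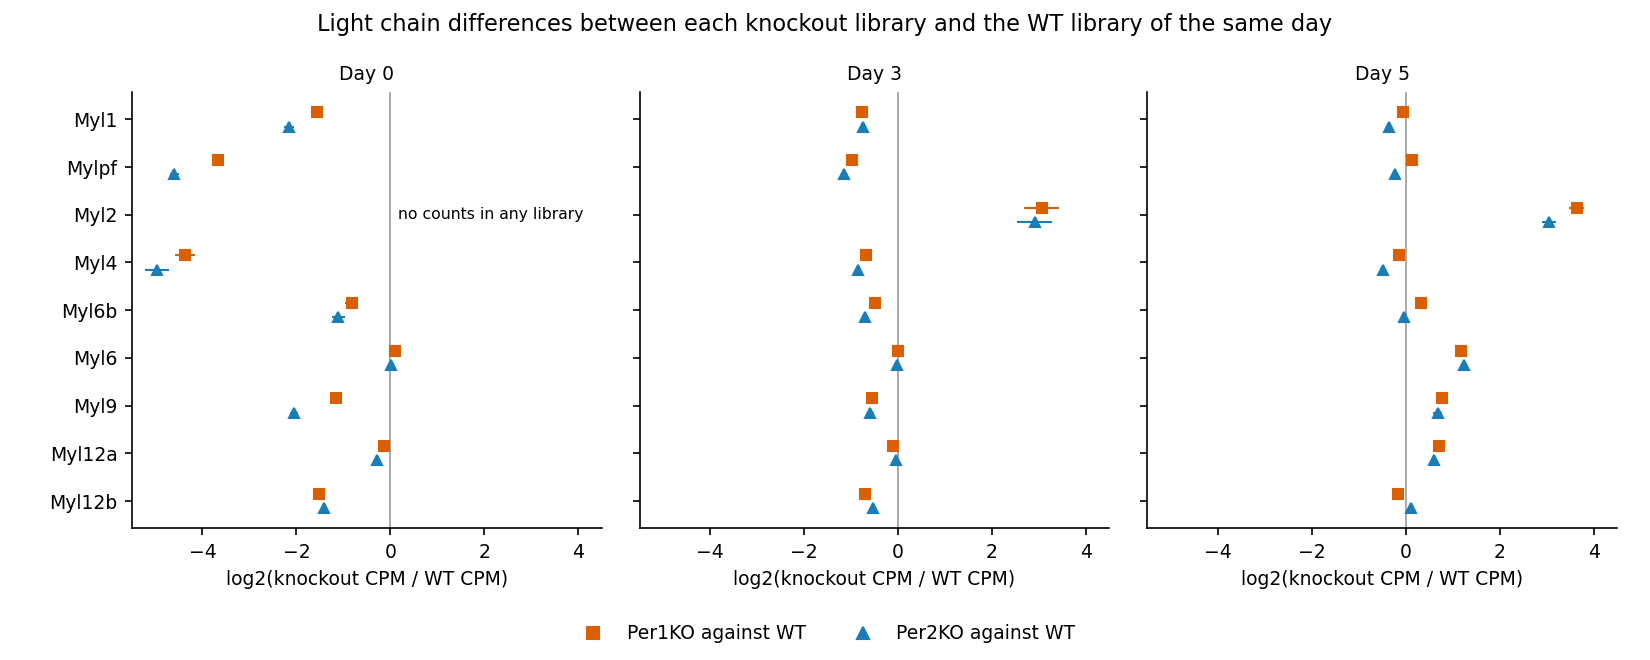
Difference of each light chain between a knockout library and the WT library of the same day (horizontal axis, log2 of the CPM ratio with a prior count of 2), with bars of 1 counting standard error. Mylpf, Myl1 and Myl4 lie left of 0 on day 0 (down to -4.97 for Myl4 in Per2KO) and nearer 0 on day 5. Myl9 and Myl12a move from left to right of 0, and Myl2 lies at 2.91 to 3.64 on days 3 and 5.

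The summed level of 6 myotube markers (Myog, Mymk, Mymx, Myh3, Ckm and Acta1), most of it Acta1 and Myh3, was 591, 15635 and 16855 CPM in WT, 28.04, 6344 and 10248 CPM in Per1KO and 13.1, 5703 and 7924 CPM in Per2KO. All 6 reached 1 CPM in at least 1 library, and the sum was highest in WT on each day. Ckm, the muscle creatine kinase, stood apart on day 5, with 276 CPM in WT, 434 in Per1KO and 331 in Per2KO. For bulk RNA, fewer differentiated cells and less RNA per cell cannot be told apart, and the part of these markers in the light chain levels was not tested. On day 5 this sum was higher in WT than in either knockout, while Myl2 was lower in WT.

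Between the 2 knockouts edgeR called 0 of 13324 genes in either direction (0% higher and 0% lower), with 54 higher and 34 lower in Per1KO at an unadjusted p under 0.05 and 1 gene called by DESeq2. Light chain differences between Per1KO and Per2KO over the days lay between 0.02 ± 0.25 for Myl6 and 0.37 ± 0.74 for Mylpf on the log2 scale. All 7 were positive. On day 5 Per1KO held 1.497 times as much Myl2 as Per2KO, and 1.28 times as much Mylpf. Both knockouts were compared with the same 3 WT libraries.

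A difference in response was fitted as the change from day 0 to days 3 and 5 in the knockouts less that in WT, in edgeR's quasi-likelihood test with 3 residual degrees of freedom. Across all genes 3.5% were called higher and 1.45% lower. Myl2 could not be estimated, since it had no count on day 0. Of the other 6 light chains tested, Myl4 (4.20 ± 0.29) and Mylpf (3.54 ± 0.44) were called, both higher. These are the 2 chains whose day 0 levels lay furthest below WT. Myl1 had a difference of 1.38 ± 0.31, Myl9 of 1.61 ± 0.52, Myl6b of 0.73 ± 0.32 and Myl6 of 0.50 ± 0.42, none of them called. The count of 2 became 6 without the day 3 libraries, adding Myl1, Myl6, Myl6b and Myl9, and 4 without Per1KO or under DESeq2, each adding Myl1 and Myl9.

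The 4 light chains outside the chosen 8 were Myl7, the atrial regulatory chain, Myl10, another regulatory chain, and Myl12a and Myl12b, the main non-muscle regulatory chains. Myl7 and Myl10 had at most 3 counts in any library. Myl12a stood at 815, 1120 and 895 CPM in WT, at 744, 1042 and 1469 CPM in Per1KO and at 667, 1091 and 1358 CPM in Per2KO. It was higher on day 5 than on day 0 (log2 change 0.73 ± 0.20, edgeR adjusted p = 0.0177), a call lost under 4 of 9 alternatives (adjusted p = 0.0502 to 0.201), those without Per1KO and without Per2KO among them. Myl12b stood at 260, 260 and 206 CPM in WT, at 90.9, 159 and 185 CPM in Per1KO and at 96.9, 181 and 224 CPM in Per2KO. Its response was larger in the knockouts by 1.14 ± 0.25 (edgeR adjusted p = 0.0474), lost under 3 of 9 alternatives (adjusted p = 0.0526 to 0.202), those without either knockout among them. Myl12a and Myl12b share 31-base words with each other and with pseudogenes (31.3% and 33.6%), and Myl12a overlaps Myom1 on the other strand. Their split is therefore uncertain, and their sum on day 5 was 1.501-fold (Per1KO) and 1.44-fold (Per2KO) that of WT.

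Genes that add or remove the phosphate of regulatory light chains were called in both directions. Of 14 listed, 12 were tested. Against day 0, 3 were higher and 1 lower on day 3, beside 18.1% and 16.9% of all genes. On day 5, 4 were higher and 2 lower, beside 23.2% and 22.9%, with a median log2 change on day 5 of 0.13 beside -0.01 over all genes, so nothing particular to the list is read from these counts. The largest rise was that of Ppp1r12b, a targeting subunit of the myosin phosphatase found in striated muscle (2.63 ± 0.12 on day 5, edgeR adjusted p = 7.61e-06; 1.96 ± 0.12 on day 3, adjusted p = 6.78e-05). The largest fall was that of Cit, the citron kinase of dividing cells (-2.25 ± 0.32 on day 5, adjusted p = 0.000959; -1.35 ± 0.30 on day 3, adjusted p = 0.0112). The day 3 call of Cit was lost without Per1KO (adjusted p = 0.0827) and without Per2KO (0.0707). Among the kinases, Mylk and Mylk4 were higher on both days and Mylk2, the kinase of skeletal muscle, on day 5.

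Against WT, Per1KO had 1 of these 12 higher and 2 lower, beside 9.26% and 10.1% of all genes, and for Per2KO the counts were 3 and 4, beside 9.31% and 10.6%, with medians of -0.13 and -0.22. Ppp1r14b, an inhibitor of the phosphatase, had the largest rise in both (0.69 ± 0.17, edgeR adjusted p = 0.0241, and 0.65 ± 0.17, adjusted p = 0.0297). The largest falls were those of Mylk, the kinase of smooth muscle and non-muscle cells, in Per1KO (-1.33 ± 0.20, adjusted p = 0.00295) and of Mylk4 in Per2KO (-1.57 ± 0.39, adjusted p = 0.0287). Mylk stood at 6.63, 11.8 and 32.5 CPM in WT, at 1.82, 6.02 and 13.7 CPM in Per1KO and at 2.30, 4.96 and 11.6 CPM in Per2KO, so both knockouts lay below WT on each day. Each Ppp1r14b call was lost under 3 of 9 alternatives (adjusted p = 0.0628 to 0.169 in Per1KO and 0.0931 to 0.210 in Per2KO), that of Mylk4 under 4 (0.0572 to 0.235) and that of Mylk in Per1KO under 1 (0.0672), all of them lost without day 5. Mylk4 was the 1 gene of the list with a called difference in response, -2.04 ± 0.39 (edgeR adjusted p = 0.0331), a call lost without Per1KO (adjusted p = 0.0983) or without day 3 (0.0682).

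The heavy chains, to which the light chains bind, were tested for 11 of 13 class II genes. On day 3, 8 were higher and 1 lower, and on day 5, 9 were higher and 1 lower, with medians of 7.12 and 8.48 on the log2 scale. Over all genes tested the shares were 18.1% higher and 16.9% lower on day 3, and 23.2% and 22.9% on day 5. The largest rise on day 3 was that of embryonic Myh3 (8.18 ± 1.52, edgeR adjusted p = 0.00588, lost without Per1KO at 0.137 and with no filter at 0.0657) and on day 5 that of Myh4, the heavy chain of the fastest fibres (10.12 ± 0.52, adjusted p = 1.2e-05). Non-muscle Myh10 was the 1 called lower, and fell by 1.02 ± 0.13 on day 5 (edgeR adjusted p = 0.00054). Non-muscle Myh9 had -0.36 ± 0.15 on day 5 (adjusted p = 0.0779), and 2 heavy chains were called lower that day under DESeq2, with library totals and without WT.

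Against WT 0 heavy chains were called higher by edgeR, by DESeq2 or at an unadjusted p under 0.05, 3 were lower in Per1KO and 4 in Per2KO, with medians of -0.64 and -1.16 beside -0.02 and -0.01 over all genes. Of all genes tested, 9.26% were higher and 10.1% lower in Per1KO, and 9.31% and 10.6% in Per2KO. At these shares the count of 0 higher among 11 is not read as a result. The largest falls were those of Myh7b in Per1KO (-1.47 ± 0.42, edgeR adjusted p = 0.0445) and of perinatal Myh8 in Per2KO (-2.08 ± 0.54, adjusted p = 0.0329). The Myh7b call was lost under 5 of 9 alternatives (adjusted p = 0.0536 to 0.331) and the Myh8 call under 4 (0.0895 to 0.310), both of them without day 3 among others. The slow heavy chain Myh7, which carries Myl2 and Myl3 in slow fibres and ventricle, stood at 1.13, 31.5 and 138 CPM in WT, at 0.0405, 34.6 and 97.1 CPM in Per1KO and at 0, 21.1 and 57.8 CPM in Per2KO. Its level on day 5 was therefore lower in both knockouts than in WT, while that of Myl2 was higher.

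Of 9 other slow-fibre genes, 8 were called higher than on day 0 by edgeR on both days and 0 lower, with medians of 6.86 and 7.49. The shares of all genes were 18.1% higher and 16.9% lower on day 3, and 23.2% and 22.9% on day 5. Tpm3, a slow tropomyosin, had -0.46 ± 0.16 on day 3 (unadjusted p = 0.0228, adjusted p = 0.0605), and 1 gene was called lower that day under DESeq2, with library totals and without WT. Ankrd2, a titin-binding ankyrin repeat protein, had the largest rise (8.30 ± 0.65 on day 5, edgeR adjusted p = 6.8e-05). Against WT 0 were called higher by edgeR or DESeq2, with 1 at an unadjusted p under 0.05 in Per1KO. Called lower were 2 in Per1KO, where the all-gene shares were 9.26% higher and 10.1% lower. In Per2KO 4 were called lower, beside shares of 9.31% and 10.6%. At these shares the count of 0 higher among 9 is not read as a result. The medians of the list were -1.49 and -1.86, beside -0.02 and -0.01 over all genes. Csrp3, the muscle LIM protein of the Z-disc, had the largest fall in both (-2.88 ± 0.20, adjusted p = 8.14e-05, and -3.24 ± 0.20, adjusted p = 4.96e-05). Its levels were 1.13, 104 and 166 CPM in WT, 0.122, 12.7 and 26.0 CPM in Per1KO and 0.0393, 10.5 and 20.5 CPM in Per2KO. The calcium pump Atp2a2, which was not called, stood at 444, 906 and 1381 CPM in WT, at 505, 1025 and 2454 CPM in Per1KO and at 471, 1065 and 1981 CPM in Per2KO.

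Of 9 other fast-fibre genes 8 were tested, and all 8 were higher than on day 0 on both days, with medians of 5.77 and 6.61. The shares of all genes called higher were 18.1% on day 3 and 23.2% on day 5. The largest rises were those of Tnnc2 on day 3 (8.21 ± 0.43, edgeR adjusted p = 3.92e-05) and of Mybpc2, a fast myosin-binding protein C, on day 5 (9.93 ± 0.49, adjusted p = 9.02e-06). Against WT, Per1KO had 1 higher and 2 lower, beside 9.26% and 10.1% of all genes. For Per2KO the counts were 1 and 5, beside 9.31% and 10.6%. The medians of the list were -1.05 and -1.47, beside -0.02 and -0.01 over all genes. The largest falls were those of the calcium pump Atp2a1 in Per1KO (-1.70 ± 0.49, adjusted p = 0.0493) and of troponin I Tnni2 in Per2KO (-2.05 ± 0.52, adjusted p = 0.0301). The Atp2a1 call was lost under 6 of 9 alternatives (adjusted p = 0.0582 to 0.226) and the Tnni2 call under 3 (0.145 to 0.172), both of them without day 3 among others.

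The gene called higher was Tnnc2, the calcium-binding troponin C of fast fibres, in both knockouts (1.996 ± 0.32, edgeR adjusted p = 0.00492, and 1.85 ± 0.32, adjusted p = 0.00659). It stood at 0.141, 11.7 and 9.66 CPM in WT, at 0.101, 30.3 and 65.9 CPM in Per1KO and at 0.0983, 30.1 and 54.5 CPM in Per2KO. Like Myl2 it was near 0 on day 0 and above WT in both knockouts on days 3 and 5, and like that of Myl2 its call was lost without day 5 (adjusted p = 0.105 and 0.1). Tnnc2 overlaps Ube2c on the other strand, and strand use in the authors' counting is not given in the sources used here. In response, Casq2, the calsequestrin of slow and cardiac muscle, had the largest difference among slow-fibre genes (3.51 ± 0.29, edgeR adjusted p = 0.00473), where 4 of 9 were higher. Tnnt3 had the largest among fast-fibre genes (2.65 ± 0.37, adjusted p = 0.0142), where 3 of 8 were higher, and Myh3 among heavy chains (5.27 ± 0.47, adjusted p = 0.00624), where 2 of 11 were higher. Of all genes tested, 3.5% were called higher in response and 1.45% lower. Without day 5 the calls of Tnnt3 and Myh3 were lost (adjusted p = 0.0585 and 0.102).

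**Figure D5:**
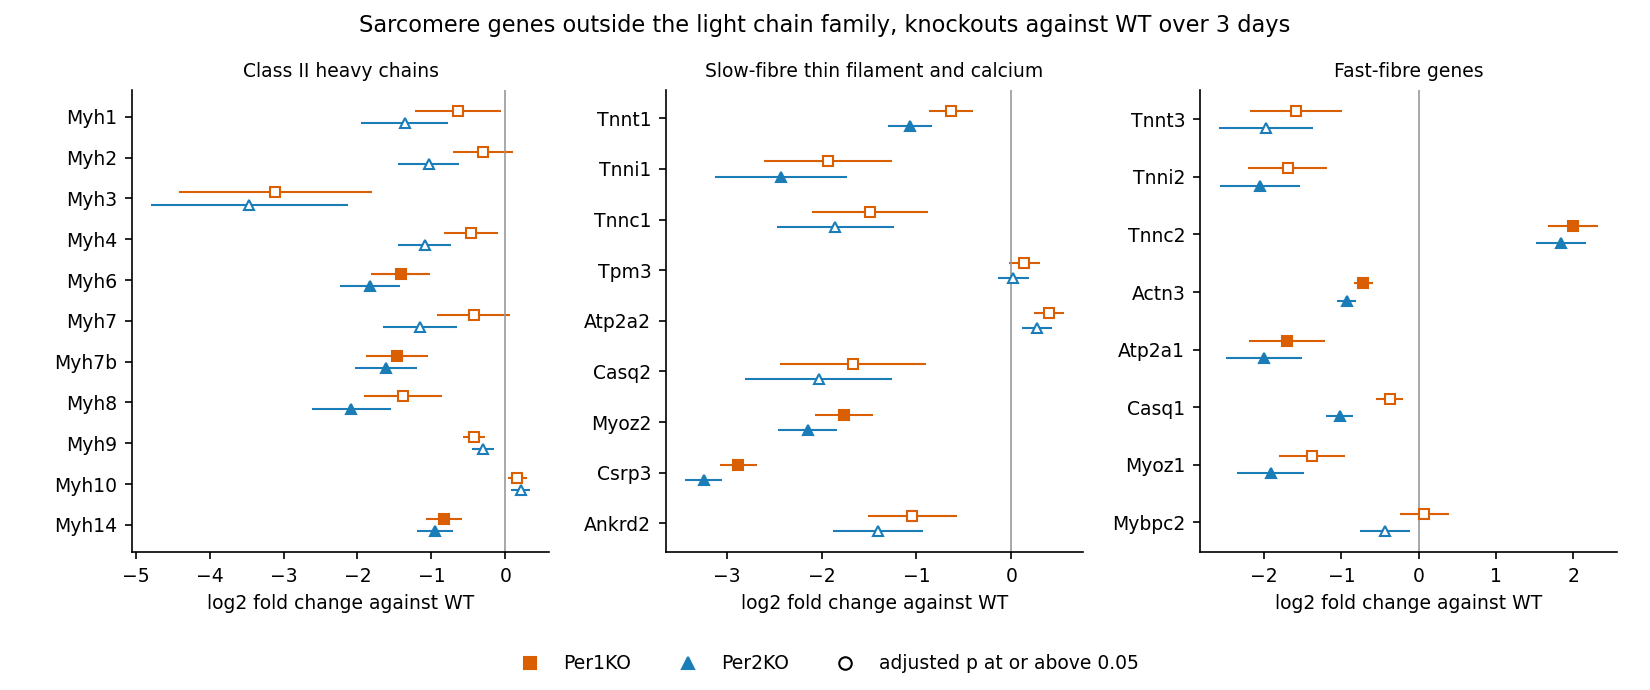
Log2 fold change of each knockout against WT over the 3 days (horizontal axis, ± 1 standard error) for heavy chains, slow-fibre and fast-fibre genes that were tested; filled symbols had an adjusted p under 0.05. Most points lie left of 0, and Tnnc2, at 1.996 and 1.85, is the 1 filled point to the right.

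Across the 9 libraries the muscle chains ran together. Pearson's r of log2 CPM was 0.998 between Myl4 and Mylpf, 0.993 between Myl1 and Myl4 and 0.994 between Myl1 and Myl6b. Myl2 had r of 0.875 with Mylpf and 0.921 with Myl6b, and Myl6 had r between 0.08 and 0.33 with the other 6. The 9 points share populations, days and the depth gap between WT and knockouts, and these values are descriptions.

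Among 9578 genes tested with a mean of at least 10 CPM, those most like Mylpf were Casq2 (r = 0.9992) and Mybph (0.9991), and those most like Myl4 were Casq2 (0.9992) and Srl (0.999). Hfe2 (0.9986) and Sgca (0.998) came closest to Myl1, and Adamtsl2 (0.9985) and Hfe2 (0.997) to Myl6b. Such values were common, since 331 genes had r over 0.95 with Mylpf. For Myl2 the closest were Klhl13 (0.9957) and Tmem140 (0.9942). Klhl13 stood at 2.68, 10.0 and 15.6 CPM in WT, at 2.49, 14.4 and 32.6 CPM in Per1KO and at 2.48, 14.4 and 24.6 CPM in Per2KO. For Myl6 they were its own pseudogene Gm10080 (0.9768) and Lypd6 (0.9651), and for Myl9 Chmp7 (0.9825) and S100a13 (0.976), with 4 and 8 genes over 0.95.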

How the data were processed

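Poly(A) RNA of 9 cultures was made into TruSeq libraries and sequenced as single reads, per the labels' protocols. The authors deposited raw read counts per Ensembl gene. The submitters' processing notes name CASAVA 1.8, HISAT2 2.1.0 and mm10, while the counting program, its use of strand and its handling of reads that match several genes are not given in the sources used here. Symbols matched 47224 of 47729 genes.

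CPM (counts scaled by library total and edgeR's TMM factor, 0.907 to 1.08) were computed here. Genes reaching 1 CPM in 3 or more libraries were tested with edgeR 4.0.16 (quasi-likelihood, robust, limma 3.58.1, R 4.3.3) and Benjamini-Hochberg adjustment over all 13324. An additive model of population and day left 4 residual degrees of freedom, and the interaction of knockout with differentiation 3. Standard errors given for edgeR are approximate, taken as the size of the log2 change over the square root of the test's F statistic. Days stood in for replicates of a population, so p-values speak of these populations only. Single-library differences used a prior count of 2, and intervals and floors reflect counting error alone, because the reads carry no molecular identifiers and may be copies. The model code was tested on simulated data.

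The members and gene lists were chosen with earlier results of these data known. Named genes were the members, the other light chains, the largest called rise and fall of each further list per comparison, and the 2 most correlated genes of each member, with examples named beyond this rule after their values were seen. Gene models and 31-base words came from GENCODE M21 (principal transcripts). Alternatives were other scalings, no filter, DESeq2 1.42.0, thinned knockout libraries, fewer libraries, and leaving out each population or day.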

Additional observations from a re-analysis of the deposited data

Results flagged for a closer look

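The difference between the knockouts' response to differentiation and that of WT was tested with edgeR's interaction term. It passed the threshold for 13 of the genes listed (the 8 members and lists of 4, 14, 13, 9 and 9 genes). For 12 of the 13 the response was larger in the knockouts. Of all genes tested, 3.5% were called higher and 1.45% lower. Among the light chains the larger responses were those of Myl4 (4.20 on the log2 scale), Mylpf (3.54) and Myl12b (1.14). Among heavy chains they were the embryonic Myh3 (5.27) and the slow Myh7 (5.04), which had no count in Per2KO on day 0. Among slow-fibre genes they were Casq2 (3.51), Tnni1 (2.86), Tnnc1 (2.64) and Myoz2 (2.28), and among fast-fibre genes Tnnt3 (2.65), Atp2a1 (2.24) and Tnni2 (2.12). The kinase Mylk4 went the other way (-2.04), since it rose from 3.10 to 40.0 CPM by day 5 in WT and from 5.33 to 14.3 CPM in Per1KO. A larger response does not mean a higher level. On day 0 Myh3 stood at 140 CPM in WT, 2.51 in Per1KO and 0.786 in Per2KO, and on day 5 at 7203, 3211 and 2420 CPM. Mylpf in Per1KO was above WT on day 5 (4608 against 4210 CPM). WT also differs from the knockouts in depth and in a title suffix, and for all 13 these and the genotype cannot be told apart.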

How the results depend on the processing

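The number of genes called moved by over 1.5 times under some choices. For Per1KO against WT it was 2575, with 1362 when only those 6 libraries were fitted and 685 to 2639 when a day was left out (685 without day 5, 890 without day 3). For Per2KO against WT it was 2652, with 1229 from 6 libraries and 753 to 2968 when a day was left out (753 without day 5, 807 without day 3). For day 3 against day 0 it was 4664, with 2977 from 6 libraries and 1091 (without Per1KO), 1381 (without Per2KO) or 7479 (without WT). For day 5 it was 6149, with 2259 (without Per1KO), 2896 (without Per2KO) and up to 8341. For the response it was 659, with 1464 under DESeq2, 404 without Per1KO, 240 without Per2KO and 1893 without day 5. Between the knockouts it was 0, with 1 under DESeq2 and 1 without the filter. Settings with fewer libraries also leave fewer degrees of freedom. The cause of a changed count, whether it went down or up, was not tested. Myl12a, which was not called against WT with or without day 5, changed sign when day 5 was left out. It went from 0.14 ± 0.20 to -0.13 ± 0.17 in Per1KO against WT (0.28 without day 0). In Per2KO against WT it went from 0.07 ± 0.20 to -0.17 ± 0.17 (0.25 without day 0). DESeq2 called Myl1 lower in Per1KO and Myl1 and Myl6b lower in Per2KO. Over all genes, in both directions together, it called 3396 and 3461, so these calls are not read as particular to light chains. Of 144 single-library differences between light chains, 0 changed sign with a prior count of 0.5. The size of some depended on it. Myl2, with no count on day 0, moved most, from 11.94 to 13.94 on the log2 scale between days 0 and 5 of Per1KO. Other scalings, no filter and thinning the knockouts to WT depth left Myl2 called in both knockouts. The additive model already sets populations against each other within days, and the labels give no replicate numbers from which a further block could be made.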
